A study of Mus musculus with 8 samples.

Results

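The 10 transcripts described here encode the machinery that presents peptides on major histocompatibility complex (MHC) class II molecules: the chains H2-Aa, H2-Ab1 and H2-Eb1, the invariant chain Cd74, the exchange factor chains H2-DMa, H2-DMb1, H2-Oa and H2-Ob, the transactivator Ciita and the DNA-binding factor Rfx5. They were chosen by name, with earlier results of these data known, and symbols were matched to the Ensembl identifiers of the table. All 10 were found among its 15681 genes, and all 10 were among the 12489 genes tested. Transcripts were measured by RNA sequencing in 8 libraries of mature B cells sorted from mouse spleen. The mice were 8 to 10 weeks old, and the cells were cultured with 20 µg/ml lipopolysaccharide (LPS) and 20 ng/ml interleukin 4 (IL-4) in medium with 15% serum and harvested at 72 h. Lipopolysaccharide activates B cells through a receptor for bacterial products, and interleukin 4 is a helper T cell cytokine known to raise class II on B cells.

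There were 4 groups of 2 libraries: controls described as heterozygous (control), cells lacking Myc (Myc_KO), cells lacking Max (Max_KO) and cells lacking Myc and Max together (double_KO). Myc, a transcription factor, needs Max as its partner to bind DNA. All groups, controls included, were stimulated, so that no resting cells stand beside them. The labels do not say at which locus the controls are heterozygous, which Cre or promoter drove the deletion, or whether separate mice gave the libraries of a group. The p-values therefore measure the spread between these libraries, which may be technical.

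The libraries were grouped by the sample titles, which are also the column names of the table. For 2 libraries, Myc_KO replicate 2 and double_KO replicate 1, the description field gives the other of these genotypes. Max was at 54.5 and 55.0 RPM in the controls, 70.5 and 59.8 in Myc_KO replicates 1 and 2, 16.4 and 15.5 in Max_KO, and 28.6 and 31.2 in double_KO replicates 1 and 2. The level of Max thus goes with the titles and against the description in both disputed libraries. Myc was at 111 and 116 in the controls, 48.3 and 55.8 in Myc_KO, 192 and 176 in Max_KO, and 38.8 and 55.4 in double_KO. RPM are estimated reads divided by the effective library size that the authors' values carry, and reads summed over a gene leave unknown how many come from intact transcripts. The libraries held 14.88 to 17.91 M estimated reads, and the 10 transcripts held between 799 and 165834 estimated reads in any library.

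Class II molecules are dimers of an alpha and a beta chain that carry peptides from endosomes to the surface of antigen-presenting cells, where CD4+ T cells read them. In B cells, new dimers bind the invariant chain, a protease trims that chain to a short peptide, and the DM dimer exchanges this peptide for others while the DO dimer restrains DM. Transcription of these genes depends on a shared promoter module, in which Rfx5 and its partners bind the X box, the trimer NF-Y binds the Y box, and Ciita joins them without binding DNA itself.

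Promoter stretches that were searched for the X and Y boxes are shown first, and not all of them hold a match. RefSeq promoter windows of GRCm38.p6, from 250 bases before to 50 after the start of a transcript, were available for 7 of the 10 genes. None was available for Ciita, H2-Ab1 and Cd74, which were not searched. Positions count from the start, and the 100 bases from -120 to -21 are printed on the strand of the gene, with capitals for matches to CCAAT or its reverse complement ATTGG (the Y box core) and to AACNNATGNTGC (an X box pattern, which was written with these sequences in view). Searches covered both strands, and in the stretches printed no match of one motif overlapped a match of the other.
H2-Eb1 (chr17:34305747-34305846, + strand): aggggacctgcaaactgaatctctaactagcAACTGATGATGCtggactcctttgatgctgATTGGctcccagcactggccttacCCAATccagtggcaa
H2-Ob (chr17:34238785-34238884, + strand): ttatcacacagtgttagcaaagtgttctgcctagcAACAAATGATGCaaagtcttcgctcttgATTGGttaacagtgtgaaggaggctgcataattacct
H2-DMb1 (chr17:34153071-34153170, + strand): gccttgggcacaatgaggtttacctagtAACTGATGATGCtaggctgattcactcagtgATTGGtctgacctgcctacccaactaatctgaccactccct
H2-Aa (chr17:34287844-34287943, - strand): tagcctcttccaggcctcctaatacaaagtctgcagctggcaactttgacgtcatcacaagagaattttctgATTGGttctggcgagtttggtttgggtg
H2-Oa (chr17:34092259-34092358, + strand): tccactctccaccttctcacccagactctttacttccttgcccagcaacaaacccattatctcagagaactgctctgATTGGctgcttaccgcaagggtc
H2-DMa (chr17:34122712-34122811, + strand): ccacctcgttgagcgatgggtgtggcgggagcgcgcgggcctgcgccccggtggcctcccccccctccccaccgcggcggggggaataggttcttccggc
Rfx5 (chr3:94953988-94954087, + strand): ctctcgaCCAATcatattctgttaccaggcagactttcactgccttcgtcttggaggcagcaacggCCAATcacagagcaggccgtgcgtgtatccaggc

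The X box pattern was found upstream of H2-Eb1 (from -89), H2-Ob (-85) and H2-DMb1 (-92), that is, in 3 of the 7 genes. It was in 0.122% of all 32851 windows in the table. Because the pattern was written with these sequences in view, setting these shares side by side is no test. Outside the 10 genes the pattern was also present upstream of the neighbouring genes H2-DMb2 (-121) and H2-Eb2 (-130). In H2-Eb1, H2-Ob and H2-DMb1 an ATTGG followed it downstream, at -59, -57 and -61. The Y box core was in a window of all 7 genes, but also in 37.4% of all windows. In H2-DMa it lay at -198 of the second of its 2 windows, outside the stretch printed, which is of the first. Both H2-DMa windows, from 34122582 and from 34125268, lie downstream of the annotated gene start (34119541). The first overlaps the neighbouring gene Brd2, which reaches to 34122634. Whether either window is the promoter used in these cells was not tested. The hexamer CACGTG, an E box bound by Myc and Max dimers, was in none of the 8 windows of these 7 genes. It was in 7.15% of all windows, so that its absence from 8 windows is no result about these genes. Ciita, H2-Ab1 and Cd74 were not among the genes searched. A match describes letters in a window and is no measurement of binding.

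Ciita (ENSMUSG00000022504, GRCm38 chromosome 16, 10480059 to 10528418), the master regulator of class II transcription, had the largest log2 change of the 10 genes in each comparison with the controls. Its level was 167.7 and 197.9 RPM in the controls, 546.1 and 661.5 in Myc_KO, 422.8 and 548.9 in Max_KO, and 500.9 and 519.1 in double_KO. Every knock-out library was above both controls, while the 3 knock-out groups overlapped one another in part. Ciita rose 3.3-fold in Myc_KO, 2.66-fold in Max_KO and 2.79-fold in double_KO, as ratios of mean RPM. The limma log2 changes were 1.72, 1.4 and 1.49 (SE 0.146 each), with limma adjusted p = 9.06e-05, 0.000346 and 0.000285. Rfx5 (ENSMUSG00000005774, GRCm38 chromosome 3, 94954075 to 94961561), the subunit of the RFX complex that contacts the X box, was at 49.8 and 59.7 in the controls, 116.7 and 133.8 in Myc_KO, 95.8 and 122.2 in Max_KO, and 115.7 and 113.5 in double_KO. Its knock-out libraries also lay above both controls. Rfx5 rose by 1.2, 0.99 and 1.07 on the log2 scale (SE 0.14 each; limma adjusted p = 0.000346, 0.00126 and 0.000862). Both genes kept their call and direction in all 23 alternative analyses of each comparison with control. The title numbers fall into a series in the 30s, which holds both controls and 1 library of each knock-out, and a series in the 40s without controls; the labels do not call these batches. Within the 30s series the log2 changes of Ciita were 1.58, 1.21 and 1.46, and those of Rfx5 were 1.1, 0.81 and 1.09, with a single library per knock-out taken to vary like the controls.

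**Figure D1:**
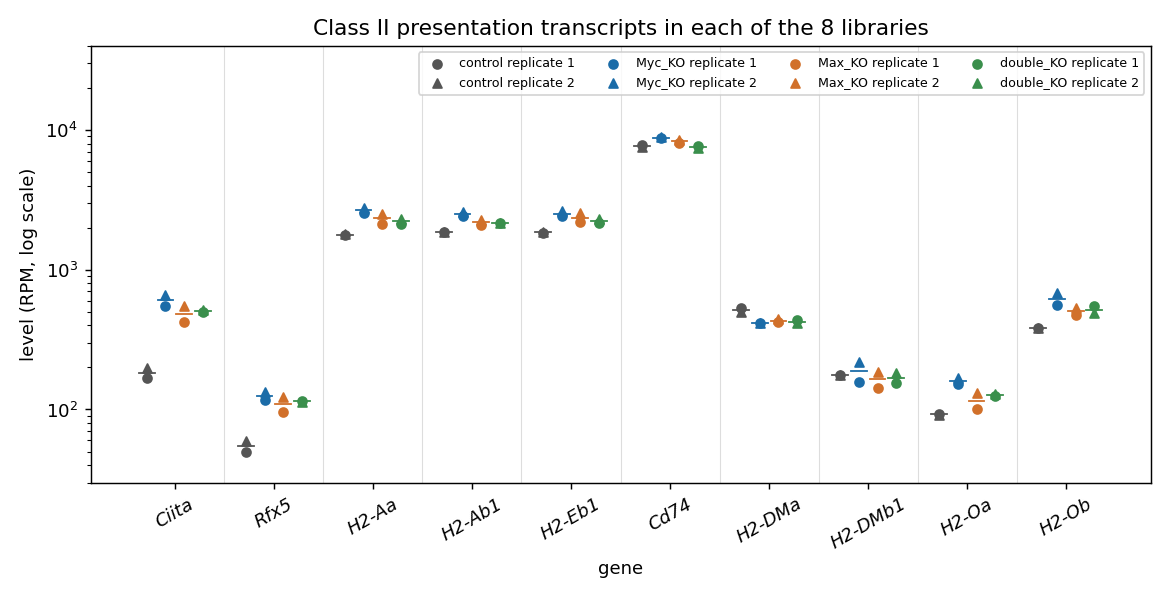
Level of each of the 10 transcripts in RPM (log axis) in the 8 libraries. Circles are replicate 1, triangles are replicate 2, colours are the groups and short lines the group means. Ciita and Rfx5 stand clear of the controls in every knock-out library, while Cd74 and H2-DMb1 differ little between groups.

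In Myc_KO, 8 of the 10 genes were called at an adjusted p under 0.05, 7 higher and 1 lower. Of all genes tested, 45.4% were called in this comparison, 24% higher and 21.4% lower. In Max_KO, 5 genes were higher and 1 lower, against 39.7% of all genes called (22.3% higher and 17.4% lower). In double_KO again 5 were higher and 1 lower, against 38.6% (21.8% higher and 16.8% lower). The median log2 change of the 10 genes was 0.51, 0.33 and 0.29 in Myc_KO, Max_KO and double_KO, while the medians over all genes tested were 0.002, 0.018 and 0.023. The controls are the same 2 libraries in the 3 comparisons, so that the comparisons are not independent of one another. Because the 10 genes were chosen with earlier results of these data known, the shares and medians are no test of them as a set. In bulk RNA, fewer cells of a type and less RNA per cell cannot be told apart.

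The classical class II chains H2-Aa, H2-Ab1 and H2-Eb1, parts of the peptide-binding dimers, were all higher in Myc_KO. Their log2 changes were below that of Ciita, and the difference between genes was not tested. H2-Aa (the A alpha chain) was at 1768.1 and 1807.5 RPM in the controls, 2553.0 and 2763.1 in Myc_KO, 2141.0 and 2524.2 in Max_KO, and 2117.4 and 2325.5 in double_KO. All 6 knock-out libraries were above the controls, and the Myc_KO libraries were the highest pair. H2-Aa rose by 0.57 in Myc_KO, 0.38 in Max_KO and 0.31 in double_KO on the log2 scale (SE 0.107 each; limma adjusted p = 0.00327, 0.0229 and 0.0486). H2-Ab1 (its partner, the A beta chain) was at 1865.9 and 1863.1 in the controls, 2439.8 and 2603.0 in Myc_KO, 2099.4 and 2288.4 in Max_KO, and 2143.4 and 2151.5 in double_KO. Its groups did not overlap with the controls either, yet only the change in Myc_KO was called. The log2 changes of H2-Ab1 were 0.43, 0.23 and 0.20 (SE 0.086 each; limma adjusted p = 0.00426, 0.0616 and 0.0942). H2-Eb1 (the E beta chain) was at 1828.5 and 1871.8 in the controls, 2422.9 and 2625.9 in Myc_KO, 2183.9 and 2534.0 in Max_KO, and 2167.2 and 2295.0 in double_KO. Again no knock-out library fell within the range of the controls. H2-Eb1 rose in Myc_KO (log2 change 0.45) and Max_KO (0.35), and its change of 0.27 in double_KO was not called (SE 0.1 each; limma adjusted p = 0.00766, 0.0257 and 0.0644).

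Ratios between the 3 chain transcripts moved little. The ratio of H2-Aa to H2-Ab1 was 0.948 and 0.97 in the controls against 0.988 to 1.10 in the knock-out libraries, and that of H2-Eb1 to H2-Ab1 was 0.98 and 1 in the controls against 0.993 to 1.11 in the knock-out libraries. In Myc_KO all 3 chains were called whichever library was left out, but none with the groups of the description (adjusted p = 0.0722, 0.111 and 0.0908 for H2-Aa, H2-Ab1 and H2-Eb1, in ranges over the alternatives that begin at 0.000549, 0.000234 and 0.00198). H2-Ab1 and H2-Eb1 also lost it without the disputed libraries (0.052 and 0.0694) and within the 30s series (0.0615 and 0.0616), and H2-Ab1 with the description groups and a replicate block (0.0507). In Max_KO, H2-Aa and H2-Eb1 lost their call when control replicate 1 was left out (adjusted p = 0.106 and 0.114), likewise for control replicate 2 (0.0797 and 0.0829) and Max_KO replicate 2 (0.142 and 0.159). Over all alternatives their adjusted p in Max_KO ran from 0.00197 to 0.218 and from 0.00316 to 0.26. In double_KO, H2-Aa kept its call in 2 of the 8 analyses that left out a library, namely those without Max_KO replicate 1 or 2 (0.0503 to 0.232 in the other 6), and H2-Eb1 gained one without Max_KO replicate 2 (0.0498). Quantile normalization gave H2-Aa log2 changes of 1.3, 1.06 and 0.95 in the 3 comparisons, H2-Ab1 1.03, 0.74 and 0.83, and H2-Eb1 1.06, 1.05 and 0.93, all more than 1.5 times those above and all called.

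Cd74 (ENSMUSG00000024610, GRCm38 chromosome 18), the invariant chain, was called in none of the 3 comparisons. It was at 7775.0 and 7599.8 RPM in the controls, 8798.2 and 8863.6 in Myc_KO, 8085.7 and 8491.8 in Max_KO, and 7674.3 and 7413.6 in double_KO. The Myc_KO and Max_KO libraries were above both controls and the double_KO libraries overlapped them. The log2 changes were 0.20, 0.11 and -0.03 (SE 0.0995 each; limma adjusted p = 0.135, 0.419 and 0.849), with 95% intervals from -0.03 to 0.43 in Myc_KO, -0.12 to 0.34 in Max_KO and -0.26 to 0.20 in double_KO. With every library scaled to the same total, Cd74 was called higher in Myc_KO (0.35; adjusted p = 0.0124), and with quantile normalization likewise (0.31; 0.0245); it was called in 3 of the 23 alternatives there, with adjusted p from 0.0124 to 0.663. The ratio of Cd74 to H2-Ab1 was 4.17 and 4.08 in the controls against 3.41 to 3.85 in the 6 knock-out libraries.

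Of the exchange factors, H2-DMa fell in all 3 comparisons, whereas both DO chains rose in Myc_KO and double_KO. H2-DMa, the alpha chain of DM, was at 529.4 and 501.0 RPM in the controls, 412.5 and 416.8 in Myc_KO, 420.3 and 440.5 in Max_KO, and 434.9 and 416.2 in double_KO. All 6 knock-out libraries lay below both controls. H2-DMa fell by 0.31, 0.26 and 0.28 on the log2 scale (SE 0.073 each; limma adjusted p = 0.00919, 0.023 and 0.0184), the one called decrease among the 10 genes in each comparison. The call depended on the scaling: with every library scaled to 1 total the median of all genes moved to 0.148, 0.125 and 0.144 in Myc_KO, Max_KO and double_KO, and H2-DMa, at -0.17, -0.15 and -0.15, was called in none (adjusted p = 0.0782, 0.108 and 0.105). It was also lost without control replicate 1 in all 3 comparisons (0.0681, 0.134 and 0.115), in Max_KO without control replicate 2 (0.0558) or either Max_KO library (0.0991 and 0.0555), and in double_KO without either double_KO library (0.0531 and 0.102). The alternatives gave a range of adjusted p from 0.00446 to 0.0782 in Myc_KO, 0.00658 to 0.134 in Max_KO and 0.00812 to 0.115 in double_KO. The gene Brd2 overlaps the start of H2-DMa, and the strand setting of the counting is not given in the sources used here.

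H2-DMb1, a beta chain of DM, was at 177.4 and 176.7 RPM in the controls, 157.9 and 218.3 in Myc_KO, 142.0 and 186.8 in Max_KO, and 155.1 and 181.2 in double_KO. Each knock-out group had 1 library below and 1 above the controls. The log2 changes of 0.07, -0.12 and -0.08 (SE 0.175 each) were not called (limma adjusted p = 0.776, 0.616 and 0.75). Its level is uncertain because H2-DMb1 shares 27.23% of its 50-base windows with H2-DMb2, whereas the other 9 genes share none with another gene's coding transcripts. In each knock-out group the higher H2-DMb1 library was the one whose title number is in the 40s rather than the 30s. With that number series as a term, H2-DMb1 was called lower in Max_KO (-0.30; adjusted p = 0.0166) and double_KO (-0.26; 0.0305). H2-DMb2, the second beta chain, was at 910.9 and 839.7 in the controls against 815.4 to 929.8 in the knock-out libraries, and was called in none. With quantile normalization H2-DMb2 was called higher in Myc_KO (log2 change 0.31, limma adjusted p = 0.0193). The sum of H2-DMb1 and H2-DMb2 was 1016.4 to 1088.3 RPM in the controls against 973.3 to 1119.2 in the knock-out libraries.

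H2-Oa, the alpha chain of DO, which is expressed mainly in B cells, was at 92.8 and 92.0 RPM in the controls, 153.1 and 168.2 in Myc_KO, 100.6 and 130.8 in Max_KO, and 125.4 and 128.0 in double_KO. No knock-out library reached down to the controls. H2-Oa rose by 0.80 in Myc_KO and 0.46 in double_KO, and its change of 0.31 in Max_KO was not called (SE 0.122 each; limma adjusted p = 0.00127, 0.0196 and 0.0752). H2-Ob, the beta chain, was at 380.4 and 381.2 in the controls, 558.0 and 684.8 in Myc_KO, 478.3 and 536.3 in Max_KO, and 548.6 and 490.0 in double_KO. The controls were again the lowest libraries. H2-Ob rose by 0.70, 0.41 and 0.45 (SE 0.114 each; limma adjusted p = 0.00169, 0.0216 and 0.0162). Both DO genes kept their call in Myc_KO in all 23 alternatives. In Max_KO the call of H2-Ob was lost without control replicate 1, control replicate 2 or Max_KO replicate 2 (adjusted p = 0.0998, 0.0917 and 0.117), and H2-Oa was called without Max_KO replicate 1 (log2 change 0.50, adjusted p = 0.00875). In double_KO, H2-Oa was not called without any one of the control or double_KO libraries (0.0661 to 0.0912), and H2-Ob not without control replicate 1, control replicate 2 or double_KO replicate 1 (0.083, 0.0756 and 0.0957). The ratio of H2-DMa to H2-Oa was 5.70 and 5.45 in the controls, 2.69 and 2.48 in Myc_KO, 4.18 and 3.37 in Max_KO, and 3.47 and 3.25 in double_KO.

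**Figure D2:**
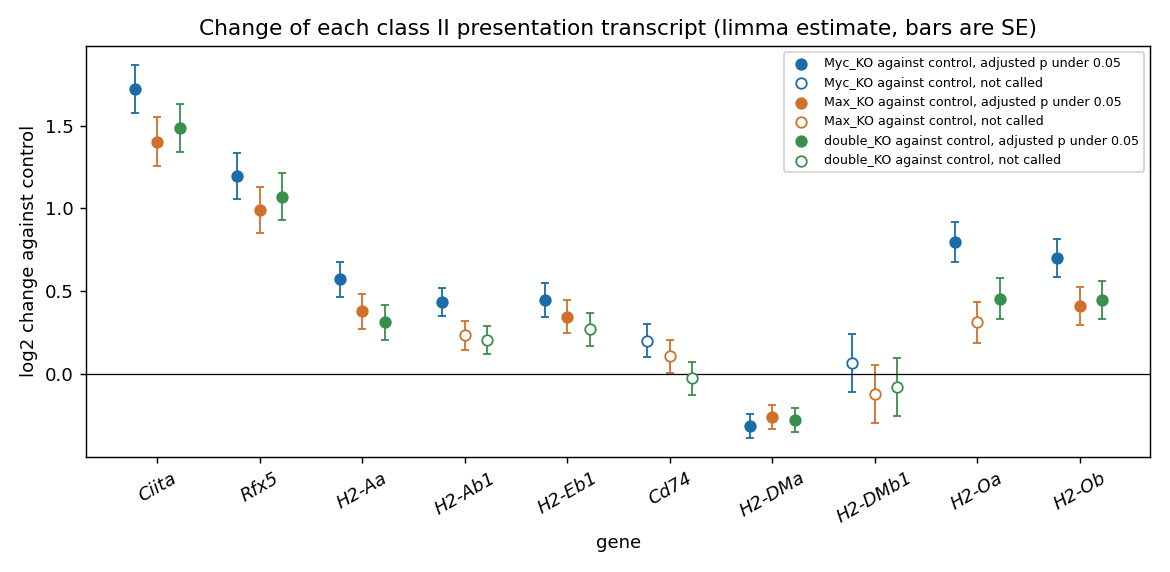
Log2 change of each transcript against the controls, with bars of 1 SE (2 libraries a group). Filled points have an adjusted p under 0.05. Ciita and Rfx5 lie highest, the chains and the DO genes between 0.20 and 0.80, Cd74 and H2-DMb1 between -0.12 and 0.20, and H2-DMa below 0 in all 3 comparisons.

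Divided by the length of the longest coding transcript, Cd74 was the most abundant of the 10 in the controls, at 5452 RPM per kb. H2-Aa and H2-Ab1 followed at 1585 and 1538, then H2-Eb1 at 1109. H2-DMa was at 257, H2-Ob at 143, H2-DMb1 at 126 and H2-Oa at 84.9, and the regulators were lowest, with Ciita at 30.4 and Rfx5 at 12.3. The ranges of H2-Aa and H2-Ab1 in the controls did not overlap (1567.5 to 1602.4 against 1537.2 to 1539.5), and neither did those of any other neighbours in this order. In Myc_KO the order changed in 2 places. There H2-Ob at 233 RPM per kb lay above H2-DMa at 207, with no overlap of libraries, and H2-Oa at 148 above H2-DMb1 at 134, with overlap. The order depends on the lengths used. In RPM without this division, H2-Ab1 lay above H2-Aa in the controls (1865.9 and 1863.1 against 1768.1 and 1807.5). The mean of H2-Oa in Myc_KO was then below that of H2-DMb1 (160.7 against 188.1 RPM).

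Between the knock-out groups, limma called none of the 10 genes. Of all genes tested, 4.12% were called between Max_KO and Myc_KO, 0.456% between double_KO and Myc_KO and 0.04% between double_KO and Max_KO, shares that moved widely with the libraries used. At an unadjusted p under 0.05 there were 3, 3 and 0 of the 10. The lowest adjusted p was that of H2-Oa, lower in Max_KO than in Myc_KO by 0.48 on the log2 scale (log2 difference -0.48, 95% interval -0.77 to -0.20; adjusted p = 0.0709). Without Max_KO replicate 2 it was called (-0.67; 0.0131), as it was with the number series as a term (0.0152) and in the 30s series alone (0.00253). For Ciita the interval of the difference was -0.65 to 0.02 between Max_KO and Myc_KO, -0.57 to 0.10 between double_KO and Myc_KO, and -0.25 to 0.42 between double_KO and Max_KO. These intervals leave room for differences of the size of the changes in the chains.

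For 7 of the 10 genes the change in double_KO was below the sum of those of the single knock-outs by the interaction test. For Ciita the 2 single changes summed to 3.13 on the log2 scale and the double knock-out showed 1.49. For Rfx5 they summed to 2.19 against 1.07, and for H2-Oa to 1.11 against 0.46. The interaction (the double_KO level plus the control level, less those of both single knock-outs) was called below 0 for 7 of the 10 genes, namely Ciita, Rfx5, H2-Ob, H2-Oa, H2-Aa, H2-Eb1 and H2-Ab1. Of all genes tested, 27.3% were called for the interaction, 15% below 0. It was -1.64 for Ciita and -1.11 for Rfx5 (SE 0.206 and 0.198; limma adjusted p = 0.00165 and 0.00561), both called in all 22 alternatives. It was not called for Cd74, H2-DMa and H2-DMb1 (-0.34, 0.30 and -0.03; adjusted p = 0.112, 0.0657 and 0.951). The number called fell from 7 to 2 without control replicate 1 or Max_KO replicate 2, to 3 without control replicate 2 or either double_KO library, to 4 without Myc_KO replicate 2, and to 2 with the groups of the description.

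Of the other 3 class II chains listed, H2-DMb2 and H2-Eb2 were in the table, and H2-Ea, the E alpha chain, was not found by that symbol. Whether the table holds the E alpha partner of H2-Eb1 under another symbol was not checked. H2-Eb2, a second E beta gene, was at 32.8 and 36.4 RPM in the controls, 90.6 and 100.6 in Myc_KO, 69.4 and 87.8 in Max_KO, and 83.6 and 80.2 in double_KO. All of its knock-out libraries were above the controls. H2-Eb2 rose by 1.47, 1.18 and 1.24 on the log2 scale (SE 0.128 each; limma adjusted p = 0.0001, 0.000411 and 0.000327); its difference from H2-Eb1, the gene beside it, was not tested. By Pearson correlation of the log2 values over the 8 libraries, the genes nearest to Ciita among 9540 with a mean of at least 5 RPM were H2-Eb2 (r = 0.998), Spag9 and Rfx5 (0.997 each), and Btbd7 and Zbtb37 (0.996 each). Those nearest to H2-Ab1 were Cdk19 (0.989), Cic (0.986), Fam69a (0.984), Tmem134 (0.983) and Cbfa2t2 (0.981). The points of these correlations share libraries and groups, so that r mostly describes the step from controls to knock-outs.

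Of the 10 genes, 7 lie in the class II region of chromosome 17 (GRCm38, 34092340 to 34341412, 249.1 kb from H2-Oa to H2-Eb2). It holds 14 tested coding genes, which include the 7 already counted above. In Myc_KO 10 were higher and 1 lower, and in each of Max_KO and double_KO 7 were higher and 1 lower. Over all genes tested, 24%, 22.3% and 21.8% were called higher in Myc_KO, Max_KO and double_KO, and 21.4%, 17.4% and 16.8% lower. Among the 7 neighbours outside the 10 genes, the peptide transporter genes Tap1 and Tap2 and the immunoproteasome gene Psmb9 were called higher in all 3 comparisons, the chromatin reader Brd2 in Myc_KO (log2 change 0.22, SE 0.077, limma adjusted p = 0.0454), and the proteasome gene Psmb8 in none. The called decrease was H2-DMa in each comparison. An antisense gene, Gm20513, overlaps H2-Eb1 but reached at most 1.42 RPM.

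**Figure D3:**
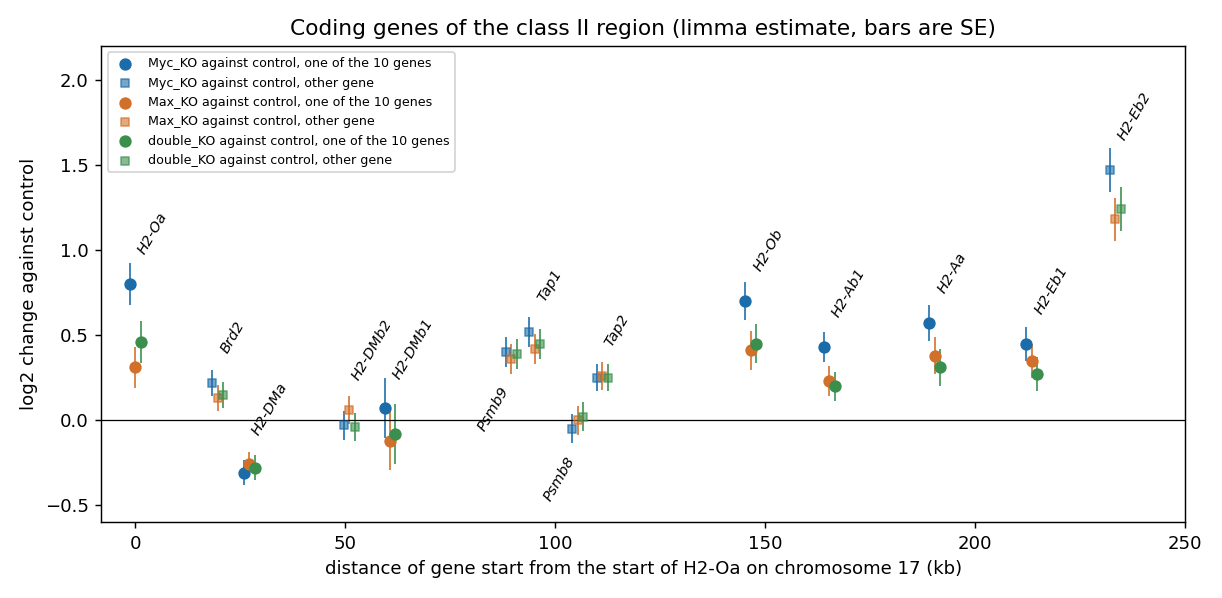
Log2 change against the controls (bars are 1 SE) of the 14 tested coding genes of the class II region, by distance of the gene start from that of H2-Oa in kb. Circles are genes of the 10, squares their neighbours. H2-Eb2 at the far end changed most, and H2-DMa is the one gene called lower.

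Among the partners of Rfx5 and Ciita at the promoter, the RFX subunits moved against them. Rfxank and Rfxap, the other subunits of the RFX complex, fell in all 3 comparisons. Rfxank was at 38.8 and 41.3 RPM in the controls, 29.1 and 26.9 in Myc_KO, 23.0 and 19.6 in Max_KO, and 20.1 and 24.9 in double_KO, and its log2 changes were -0.52, -0.91 and -0.84 (SE 0.145 each; limma adjusted p = 0.0203, 0.00204 and 0.00296). Rfxap was at 31.4 ± 2.06 (SD, n = 2) in the controls, 21.5 and 15.3 in Myc_KO, 21.4 and 16.7 in Max_KO, and 21.5 and 15.9 in double_KO, and its log2 changes were -0.79, -0.73 and -0.76 (SE 0.219 each; adjusted p = 0.019, 0.0292 and 0.0255). No knock-out library of either gene overlapped the controls. The calls in Max_KO and double_KO held for Rfxank without any 1 library, whereas in Myc_KO it was lost without control replicate 1, control replicate 2 or Myc_KO replicate 2 (adjusted p = 0.0738, 0.11 and 0.0876), and with every library scaled to 1 total (0.0708). Without the disputed libraries, and with a replicate block, neither Rfxank (0.0678 and 0.0649) nor Rfxap (0.0732 and 0.0676) was called in Myc_KO. Rfxap was not called without either control library or without replicate 2 of the knock-out group (0.0646 to 0.112 in Myc_KO, 0.0913 to 0.152 in Max_KO, 0.0835 to 0.142 in double_KO). The list held 6 genes, the NF-Y subunits and Creb1 included. Called higher and lower were 1 and 3 in Myc_KO, 2 and 2 in Max_KO, and 1 and 2 in double_KO. The shares of all genes called were 45.4%, 39.7% and 38.6% in the same order. The calls besides those of the RFX subunits were Creb1 (0.50) up and Nfyb (-0.30) down in Myc_KO, Nfya (0.45) and Nfyc (0.36) up in Max_KO, and Nfyc (0.37) up in double_KO, and each was lost in at least 1 analysis that left out a library. The list's median log2 change was -0.05, 0.10 and 0.09.

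Of 9 genes listed as regulators of Ciita, 4 were called higher and 1 lower in Myc_KO, and 3 higher and 0 lower in each of Max_KO and double_KO, with median log2 changes of 0.47, 0.19 and 0.33. Of all genes, 45.4%, 39.7% and 38.6% were called, so that 5 or 3 of 9 lies near the background. Irf1 and Pax5 rose in every comparison. Irf1, a transcription factor induced by interferon, was at 107.3 and 107.4 RPM in the controls against 208.9 to 270.8 in the knock-out libraries (log2 changes 1.22, 1.12 and 0.97; SE 0.11; limma adjusted p = 0.000115, 0.000279 and 0.000469). Pax5, the factor that maintains B cell identity, was at 375.4 and 382.0 in the controls against 979.5 to 1406.1 in the knock-out libraries (1.68, 1.63 and 1.61; SE 0.182; adjusted p = 0.000252, 0.000463 and 0.000464). Prdm1, the plasma cell repressor of Ciita, was at 39.1 RPM in both controls against 18.5 to 69.2 in the knock-out libraries and was called in none (adjusted p = 0.284, 0.201 and 0.494).

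Among 14 names listed for peptide loading and turnover, 12 were tested, with 5 called higher and 1 lower in Myc_KO, 6 higher and 2 lower in Max_KO, and 3 higher and 2 lower in double_KO. The shares called were near those of all genes in Myc_KO (45.4%) and double_KO (38.6%), and above the 39.7% of all genes in Max_KO. Ctss, the protease that trims the invariant chain in B cells, was at 184.4 and 189.4 RPM in the controls, 410.0 and 400.8 in Myc_KO, 302.2 and 326.8 in Max_KO, and 346.6 and 309.2 in double_KO. All knock-out libraries were above the controls, and the Myc_KO pair was the highest. Ctss rose by 1.12, 0.75 and 0.81 (SE 0.0836; limma adjusted p = 6.39e-05, 0.000463 and 0.000338). Sppl2a, the intramembrane protease that clears the remaining stub of the invariant chain, rose by 0.46, 0.64 and 0.60 (SE 0.0934; adjusted p = 0.00469, 0.00148 and 0.00192), and the endosomal protease Lgmn by 0.61, 0.48 and 0.62 (SE 0.102; adjusted p = 0.00185, 0.00713 and 0.00235). Without control replicate 1 the Lgmn change in Max_KO was not called (0.0568).

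The class I pathway presents cytosolic peptides to CD8+ T cells. Of its 17 genes listed, 10 were called higher and 0 lower in each comparison, with medians of 0.38, 0.26 and 0.25. The list includes Tap1, Tap2, Psmb8 and Psmb9, which were already counted in the class II region above. Over all genes tested, 45.4%, 39.7% and 38.6% were called in Myc_KO, Max_KO and double_KO, with 24%, 22.3% and 21.8% higher. Nlrc5, the class I counterpart of Ciita, rose by 0.88, 0.92 and 0.93 on the log2 scale (SE 0.108; limma adjusted p = 0.000464, 0.000537 and 0.000529). Tapbp, which holds class I molecules at the peptide transporter, rose by 0.98, 0.82 and 0.90 (SE 0.093; adjusted p = 0.000141, 0.000488 and 0.000344), and the peptide trimming enzyme Erap1 by 0.84, 1 and 1.09 (SE 0.0936; adjusted p = 0.000282, 0.000253 and 0.000205).

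**Figure D4:**
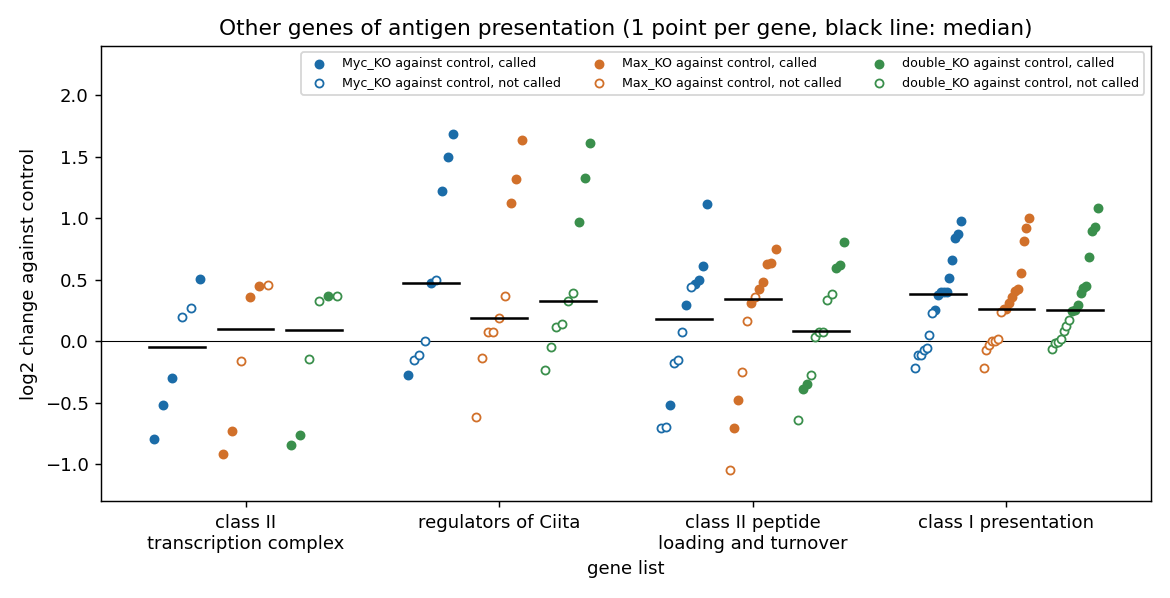
Log2 change against the controls of the genes of 4 lists, 1 point per gene, with filled points for an adjusted p under 0.05 and a black line at the list median. The RFX subunits form the low points of the first list, Irf1 and Pax5 are among the high points of the second, and the class I list holds no called decrease.

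The libraries carried the transcripts of B cells. All 6 B cell markers were in the table, with summed levels of 4852 to 4924 RPM in the controls, 6156 to 7290 in Myc_KO, 6408 to 6820 in Max_KO and 5999 to 6107 in double_KO. Ms4a1 and Pax5 rose in all 3 comparisons, while Cd79a, Cd79b and Cd22 were called in none. Plasma cells silence class II transcription. The 6 plasma cell markers summed to 1207 to 1259 RPM in the controls, 953 to 960 in Myc_KO, 574 to 658 in Max_KO and 799 to 1101 in double_KO, and Xbp1, at 680.5 to 792.9 in the controls against 225.3 to 431.0 in the knock-out libraries, fell in all 3. The other called decrease was Jchain in Max_KO (log2 change -2.67; limma adjusted p = 0.000253), and the medians of the list over Myc_KO, Max_KO and double_KO were 0.22, -0.99 and 0.33. Sdc1 was at 0.89, -0.99 and 1.01 and Prdm1 at 0.50, -0.62 and 0.33 on the log2 scale, with no call. Dendritic cells and macrophages also express class II. Of 6 dendritic cell markers, 4 were in the table, with sums of 166 to 194 RPM in the controls, 76.6 to 78.2 in Myc_KO, 92.3 to 113 in Max_KO and 84.2 to 118 in double_KO, most of it Flt3 (145.7 to 168.5 in the controls against 66.6 to 109.5 in the knock-out libraries). Flt3 and Zbtb46 fell in all 3 comparisons, while Itgax, which did not exceed 1.36 RPM, rose in all 3 (log2 changes 3.5, 2.42 and 2.31; limma adjusted p = 0.00285, 0.0174 and 0.0216). Of 6 macrophage markers, 5 were in the table, with sums of 14.2 to 14.6, 23.6 to 33.3, 16.2 to 17.2 and 14.7 to 24.1 in the same order of groups. The defining Csf1r had 0 to 3 estimated reads per library and Lyz2 had 1 to 7, while Adgre1, at 0.84 to 1.79 RPM in the controls and up to 27.1 in the knock-out libraries, and Itgam rose in all 3 comparisons. Cd68, the most abundant of the list in the controls (11.4 ± 0.949 RPM, SD, n = 2, against 3.23 to 6.34 in the knock-out libraries), fell in all 3 (log2 changes -1.69, -1.58 and -0.91; limma adjusted p = 0.000793, 0.00154 and 0.0167). The 6 T or NK cell markers summed to 2.24 to 2.30 RPM in the controls, 20.8 to 36.6 in Myc_KO, 11.9 to 16.8 in Max_KO and 13.5 to 14.3 in double_KO. Transcripts of mitochondrial DNA made up 4.93% to 5.69% of reads in the controls against 2.21% to 2.96% in the knock-out libraries. The part of these differences in the class II results was not tested.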

How the data were processed

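The authors deposited 1 table of log2 values for 15681 genes in 8 libraries. The submitters' processing notes list RSEM 1.2.3, cutadapt, CASAVA 1.8 and the build GRCm38; the annotation and the strand setting are not given there. The values behave as log2 RPM of an effective library size, with 0.5 added to the estimated reads: with the lowest value of a library taken as 0 reads, all values were multiples of 0.01 read within 0.0002 read. Changes are therefore relative to the bulk of a library's genes, not per cell. RPM here is 2 to the power of the deposited log2 value. The reads were not whole, so no count test was run.

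The 12489 genes reaching 1 RPM in 2 or more libraries entered limma 3.58.1 (R 4.3.3) as 1 model of 4 groups, through lmFit and eBayes with a trend of variance on level; there were 4 residual and 4.2 prior degrees of freedom. The two-sided tests were corrected by the Benjamini-Hochberg method across these genes. The script was tested on simulated data. Alternatives covered scaling, filters, pseudocount, groups from the description, a replicate block, the title number series, eBayes settings, and each library left out.

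Symbols came from a gene name table (15622 of 15681 identifiers matched), coordinates from GENCODE M21 on GRCm38, promoters from RefSeq. The members, the lists and the motifs were chosen with earlier results of these data known. Named were the members, lists of 6 genes or fewer whole, up to 3 called genes of lowest adjusted p from longer lists, the 5 genes nearest to Ciita and to H2-Ab1, and Myc and Max; the genes Tap1, Tap2, Psmb8, Psmb9 and Brd2 were named for their position, and Prdm1 as a plasma cell marker. Scripts ran in Python 3.11.15 (numpy 2.4.6, pandas 2.3.3, matplotlib 3.10.9, scipy 1.17.1). A few named by this rule are left out of the text.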

Additional observations from a re-analysis of the deposited data

Results flagged for a closer look

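The change in double_KO differed from the sum of the single knock-out changes for 7 of the 10 genes, by limma's test of the interaction with all 8 libraries. On the log2 scale it was -1.64 for Ciita (adjusted p = 0.00165), -1.11 for Rfx5 (0.00561), -0.67 for H2-Ob (0.0188), -0.65 for H2-Oa (0.0262), -0.64 for H2-Aa (0.017), -0.52 for H2-Eb1 (0.0281) and -0.46 for H2-Ab1 (0.0251). Each of the single changes and the double change is measured against the same 2 control libraries. Over the alternatives the adjusted p ran from 0.000152 to 0.015 for Ciita and from 0.00281 to 0.0363 for Rfx5, and for each of the other 5 genes it passed the threshold in some alternatives and missed it in others. The cause was not tested.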

How the results depend on the processing

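Of 2087 values of single genes under an alternative, 1814 kept direction and call, 184 lost the call, 52 gained one and 37 changed sign. The number of the 10 genes called was 5 in Myc_KO (8 in the report) and 3 in Max_KO (6) with groups from the description, where H2-Aa, H2-Ab1 and H2-Eb1 lost their call in Myc_KO (adjusted p = 0.0722, 0.111 and 0.0908). It was 2 in Max_KO and 2 in double_KO (6) without the mean-variance trend, and 2 in double_KO without the disputed libraries, where H2-Aa, H2-DMa, H2-Oa and H2-Ob lost their call (0.0901, 0.0641, 0.07 and 0.0502). Leaving out 1 library gave 7 to 8 in Myc_KO, 2 to 6 in Max_KO, 2 to 7 in double_KO and 0 to 1 between Max_KO and Myc_KO, where the series term and the 30s libraries alone gave 1 each. For the interaction (7) it was 2 with groups from the description, 3 without the disputed libraries, 2 with the replicate block, 2 with both the block and those groups, 2 in the 30s series, 3 without the trend and 2 to 7 without 1 library. The cause of these shifts was not tested.

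The replicate block used the numbers of the description. Under the groups of the description, deviations of same-numbered libraries correlated at -0.105 to 0.264. With only 2 numbers, and with disputed libraries in those groups, these correlations cannot tell whether same-numbered libraries were paired. With groups from the titles, both Myc_KO libraries carry number 2 and both double_KO libraries number 1, so that the block cannot be told apart from the difference between those groups. It left 8, 6 and 6 of the 10 genes called against control, and 1294 of all genes for the interaction (3406 without it). Numbers of all genes called also moved by over 1.5 times without control replicate 1 (3397 in Myc_KO, 5671 with it; 2676 in Max_KO, 4954 with it; 2650 in double_KO, 4823 with it; 1697 for the interaction), without control replicate 2 (3077 in Max_KO, 2965 in double_KO, 2147 for the interaction) and without Max_KO replicate 2 (3189 in Max_KO, 2254 for the interaction). Between Max_KO and Myc_KO (514) it was 161 without either control, 97 and 336 without Myc_KO replicates 1 and 2, 109 without Max_KO replicate 1, 13 with groups from the description, 45 with these and the block, 124 with the block, 56 with only the groups compared, 136 without the trend, 1302 with the series term and 1658 in the 30s series. Between double_KO and Myc_KO (57) it was 9 to 113 without 1 library and 0 to 548 over all settings, and between double_KO and Max_KO (5) it was 3 to 24 and 0 to 306. With the same total, the share of called genes that were higher went from 52.8% to 66.4% in Myc_KO, 56.2% to 66.7% in Max_KO and 56.6% to 68.9% in double_KO.

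The changes of sign were of genes whose change in the report was near 0. H2-DMb1 in Myc_KO (0.07) was -0.18 with groups from the description, with or without the block, -0.17 without the disputed libraries and in the 30s series, -0.03 with the replicate block, -0.11 with the series term, -0.01 summed with H2-DMb2, and -0.17 to 0.30 without 1 library. In Max_KO (-0.12) it was 0.04 summed with H2-DMb2 and -0.32 to 0.08 without 1 library. In double_KO (-0.08) it was 0.04 with the same total, 0.17 with groups from the description, with or without the block, 0.03 without the disputed libraries, 0.02 with the replicate block and -0.19 to 0.03 without 1 library. Its interaction (-0.03) was 0.03 with quantile normalization, 0.47 with groups from the description, with or without the block, 0.32 without the disputed libraries, 0.17 with the replicate block, 0.15 with the series term, 0.29 in the 30s series and -0.26 to 0.21 without 1 library. Cd74 in double_KO (-0.03) was 0.09 with the same total, 0 with quantile normalization and 0.08 with groups from the description, with or without the block. H2-DMb2 was 0.12 in Myc_KO (-0.03) and 0.08 in double_KO (-0.04) with the same total, 0.31 and 0.18 with quantile normalization, and -0.10 to 0.04 and -0.10 to 0.02 without 1 library. Its change of 0.31 in Myc_KO with quantile normalization was called (limma adjusted p = 0.0193).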
